A study of Mus musculus with 2 samples.

Results

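The 38 genes described here encode proteins that copy DNA and divide the cell. They were taken from a list of markers of dividing cells and make up 38 of 21755 protein-coding genes on chromosomes 1 to 19 and X in GENCODE release M21. Of the 38, 22 act in DNA replication or at the passage from G1 into S phase, and 16 act in mitosis.

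The promoters of these genes were read in DNase-seq data from adrenal glands taken at an age of 4 days from B6CASTF1/J females, with no treatment named in the labels. B6CASTF1/J animals are first-generation hybrids of 2 parental strains, and the alleles were not separated. There are 2 libraries, labelled as biological replicates of each other. Each sample is described with 3 females, yet both carry 1 donor identifier, and the labels leave unsaid how animals were pooled. With 1 group and n = 2, no test between groups was possible, and values are given per library.

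DNase I prefers open chromatin, so a peak of its cuts marks an accessible region. A short stretch that is protected from cutting, a footprint, can mark a bound protein. A gene was counted as open when a peak of the longer of the deposited peak lists overlapped the 1 kb to either side of any of its annotated transcription start sites (TSSs) in both libraries. In tissue made of many cells, an open promoter held by few cells and a weakly open promoter held by all cells cannot be told apart, and an open promoter is not a measure of transcription.

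In dividing cells these genes are switched on in 2 waves. Replication genes are induced late in G1 by E2F factors, which bind short T-rich and GC-rich sites. These factors activate the genes once the retinoblastoma proteins let go of the factors. Mitosis genes are induced later, in G2, and their promoters are known for CCAAT boxes bound by NF-Y and for a cell cycle genes homology region (CHR), through which the DREAM complex represses them in resting cells and the MYB-MuvB and FOXM1 proteins later activate them. In the newborn adrenal gland the cortex still grows by cell division.

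The sequences of 5 promoters show where these letters stand. They are printed 5′ to 3′ on the strand of the gene, from the RefSeq genome of build GRCm38.p6 (mm10), with motif matches in capitals. Positions are counted from the main TSS of the gene, whose own base is 0. For the replication genes, Mcm5, Mcm3 and Pole are shown because their E2F match was overlapped by a footprint in both libraries.
Mcm5, chr8:75109347-75109441, plus strand, capitals for E2F and CCAAT matches: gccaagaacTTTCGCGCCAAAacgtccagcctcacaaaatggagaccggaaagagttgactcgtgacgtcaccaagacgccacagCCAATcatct
Mcm3, chr1:20820279-20820301, minus strand, capitals for E2F: cttccgtgGCGGGAAAacttggg
Pole, chr5:110286336-110286357, plus strand, capitals for E2F: ggagagcGCGCCAAAttctccc
For the mitosis genes, Cdk1 and Ccnb2 are shown because both a CCAAT box and a CHR were overlapped by a footprint in both libraries.
Cdk1, chr10:69352950-69353048, minus strand, capitals for E2F, CCAAT and CHR in that order, with a further CCAAT box at the end: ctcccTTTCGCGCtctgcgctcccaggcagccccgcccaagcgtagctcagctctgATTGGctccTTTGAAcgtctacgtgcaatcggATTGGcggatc
Ccnb2, chr9:70421548-70421647, minus strand, capitals for CCAAT: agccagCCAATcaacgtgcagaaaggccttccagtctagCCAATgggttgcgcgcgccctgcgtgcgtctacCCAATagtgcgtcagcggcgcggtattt
Ccnb2, chr9:70421539-70421556, minus strand, capitals for CHR: gcggtaTTTGAAtcgcgg

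Every one of the 38 promoters was open. A peak near a TSS was called in both libraries at all 22 replication genes and all 16 mitosis genes, beside 61.3% of all protein-coding genes. In the shorter, stricter peak lists 37 of the 38 had one in both libraries, beside 54.8% of all genes. The exception was Aurkb, the kinase of the chromosomal passenger complex, which had a peak in the stricter list of replicate 2 but not in that of replicate 1. The promoters of these genes are rich in CpG dinucleotides, with a median of 0.80 for the CpG content observed over expected, against 0.58 for all genes. Weighted to the same CpG classes as the members, 91.5% of all genes were open, far nearer to the members than the unweighted share. The weighted share was 90.5% for the replication genes and 92.8% for the mitosis genes.

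Signal is the value that the authors gave each peak. How it was scaled, also for peak width, is not stated in the labels or headers, so each gene was also placed by its percentile among the strongest TSS peaks of all genes within 1 library. The members had a median of 2.58 in replicate 1, with a range from 1.14 to 5.44, and a median of 5.63 in replicate 2, with a range from 2.62 to 15.1. Over all open genes the medians were 2.11 and 4.33. The replication genes had medians of 2.79 and 5.94 in replicates 1 and 2, and the mitosis genes of 2.46 and 4.77. Both sets spread widely and overlapped each other in both libraries. The median percentile, taken over the mean of the 2 libraries, was 73.5 for replication genes and 62.6 for mitosis genes, beside 52.5 for all open genes. Within a gene's own CpG class the medians were 66.2 and 50.6, so the mitosis genes lay near the middle of promoters of like CpG content. Of the 22 replication genes, 17 were above the 50th percentile in both libraries, as were 9 of the 16 mitosis genes. Among the 13346 open genes, 6290 were. None of the 38 was at or below the 25th percentile in both libraries, beside 2344 of the open genes.

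**Figure D1:**
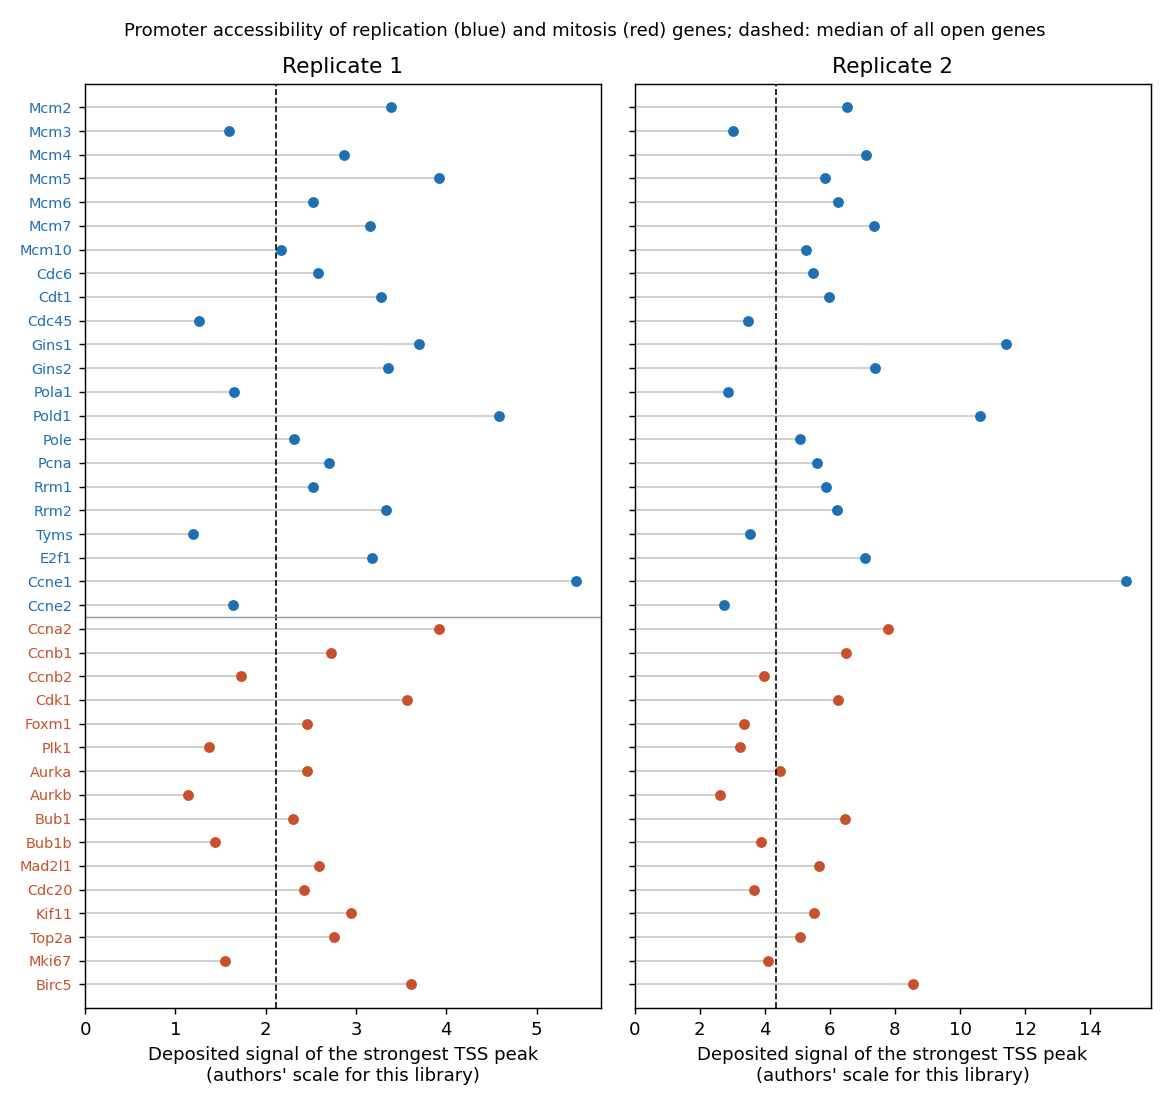
Each point is the deposited signal of the strongest TSS peak of 1 gene (horizontal axis, the authors' scale of that library) in replicate 1 (left) and replicate 2 (right), with replication genes in blue and mitosis genes in red. The dashed lines mark the medians of all open genes, 2.11 and 4.33. Ccne1 stands at the right in both libraries and Aurkb is the lowest gene in both.

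The genes of origin licensing and the helicase were among the more open members, with a median percentile of 77.6 over 12 genes. MCM2 to MCM7 form the ring that is loaded on origins and later unwinds DNA. Among their genes the signal of Mcm5 was 3.92 in replicate 1 and 5.85 in replicate 2, and that of Mcm2 was 3.39 and 6.52. Mcm4 gave 2.87 and 7.12, and Mcm6 gave 2.52 and 6.25. Mcm3 was the low member of the ring, at 1.59 and 3.01, below the median of open genes in both libraries. Mcm7 reached 3.15 and 7.34, but this peak was centred 472 bp inside the gene in replicate 1 and 442 bp in replicate 2, while the peak over the main TSS had only 0.853 and 1.58. Other annotated start sites of Mcm7 lie there, and the TSS of Ap4m1, an adaptor protein gene on the opposite strand, lies 160 bp from the main one.

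CDC6 and CDT1 load the ring. Cdc6 had signals of 2.58 and 5.47, from a peak centred at -411 and -431 bp from the main TSS, at another annotated start. Cdt1 had 3.28 and 5.98. The remaining genes of this role encode parts of the active helicase and its partner MCM10. Mcm10 had 2.17 and 5.25. Gins2 had 3.35 and 7.39 and was above the 75th percentile in both libraries. Cdc45 was the lowest gene of the role in replicate 1, at 1.26, with 3.47 in replicate 2. Its strongest peak was centred at -408 and -328 bp, toward Ufd1, whose TSS is 140 bp away on the opposite strand. A second peak of Cdc45, centred 272 and 282 bp inside the gene, was nearly as strong, at 1.06 and 3.22. Gins1 had the strongest peak of the role in replicate 2, with 3.70 and 11.4 in the 2 libraries. That peak was centred at -4844 bp in replicate 1 and ended upstream of the first annotated base of Gins1. It was counted only because it lies within 1 kb of another annotated start of Gins1. A start of Abhd12 also lies within 1 kb of it, and which gene the peak belongs to was not tested. The peak at the main TSS of Gins1 was weaker, 2.21 and 5.61.

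The polymerase genes spanned much of the range of the members. Pold1, the catalytic subunit of the lagging-strand polymerase delta, had signals of 4.58 and 10.6, at the 97.4th and 97.0th percentiles. Its peak at chr7:44548761-44549000 in replicate 1 covered the main TSS. Pola1, the catalytic subunit of polymerase alpha, which starts each strand, had only 1.65 and 2.88, below the median of open genes in both libraries. Pole, the leading-strand polymerase, lay between them at 2.31 and 5.09. The strongest peak of Pcna, the sliding clamp, had 2.70 and 5.59, but it was a different peak in each library, centred 584 bp inside the gene in replicate 1 and 14 bp from the main TSS in replicate 2.

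The enzymes of nucleotide supply differed among themselves. Ribonucleotide reductase makes deoxynucleotides from ribonucleotides, and both of its subunit genes were above the median of open genes, Rrm1 at 2.52 and 5.89 and Rrm2 at 3.33 and 6.22. Tyms, thymidylate synthase, was below it in both libraries at 1.20 and 3.54. The regulators of S phase entry lay far apart. Ccne1, cyclin E1, had the highest signal of all members, 5.44 and 15.1, at the 99.5th and 99.8th percentiles of all genes with a TSS peak. Its peak, chr7:38107541-38107780 in replicate 1, ended just upstream of the main TSS. Its paralogue Ccne2 had 1.64 and 2.74, below the median of open genes in both libraries, from a broader peak of 660 and 340 bp. E2f1, which encodes an activating E2F factor, had 3.18 and 7.09.

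Among the mitotic cyclins and kinases, Ccna2 was the most open. Cyclin A2 acts in S phase and G2, and its gene had signals of 3.92 and 7.78. Cdk1, the kinase that drives entry into mitosis, had 3.57 and 6.25. Ccnb1, its main cyclin B partner, had 2.72 and 6.50. The second B cyclin, Ccnb2, was lower, at 1.73 and 3.96, and lay under the median of open genes in both libraries. Foxm1, the late activator of mitosis genes, was above that median in replicate 1 at 2.46 and below it in replicate 2 at 3.35. It shares its promoter with Rhno1, whose TSS lies 56 bp away on the opposite strand.

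Polo-like and Aurora kinases build the spindle and correct its attachments. Plk1 was low, at 1.37 and 3.24. Aurka, the spindle pole kinase, had 2.46 and 4.45, from peaks centred at -294 and -414 bp, toward Cstf1 at 175 bp on the opposite strand. Aurkb was the least open of the 38 in both libraries, at 1.14 and 2.62. Its peak at chr11:69045571-69045760 had no footprint within 1 kb in replicate 1 and 2 in replicate 2. The number of bases with a deposited false discovery rate below 0.001 there was 0 in replicate 1 and 138 in replicate 2. The other 37 members had such bases in both libraries, beside 85.0% of open genes and 52.2% of all genes.

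The spindle checkpoint holds anaphase until every chromosome is attached. Of its genes, Bub1 had signals of 2.30 and 6.47 and Mad2l1 had 2.59 and 5.66. Bub1b was below the median of open genes in both libraries, at 1.44 and 3.87. Cdc20, the activator of the anaphase-promoting complex that the checkpoint restrains, had 2.42 and 3.66, which is above that median in replicate 1 and below it in replicate 2. Among the genes of spindle and chromosome structure, Birc5, survivin, a partner of Aurora B, had 3.61 and 8.54, far above Aurkb in both libraries. Kif11, the motor that pushes spindle poles apart, had 2.94 and 5.52. Top2a, the topoisomerase that untangles sister DNA, had 2.76 and 5.08. Mki67, which encodes the proliferation antigen Ki-67 and is used to count dividing cells, was below the median of open genes at 1.55 and 4.11.

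At most genes the strongest peak sat near the start site. The centre of the strongest TSS peak was within 150 bp of the main TSS at 30 of the 38 genes in each library. The same held for 8391 and 8385 of the 13346 open genes in replicates 1 and 2. Median peak width was 250 bp in replicate 1 and 200 bp in replicate 2, against 240 and 220 bp for all open genes. A median of 4 footprints in replicate 1 and 5 in replicate 2 lay within 1 kb of the main TSS of replication genes. Mitosis genes had a median of 4 in both, as did all open genes. The TSS of another protein-coding gene lay within 1 kb of the main TSS at 6 of the 38 genes, all on the opposite strand, beside 18.8% of open genes. They were Mcm4 with Prkdc at 466 bp, Pole with Pxmp2 at 120 bp, and the Mcm7, Cdc45, Foxm1 and Aurka pairs given above. At Mcm4 a separate, weaker peak of 2.46 and 4.56 was centred at -480 and -450 bp, near the Prkdc start. How the signal divides between the promoters of the other pairs was not tested.

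**Figure D2:**
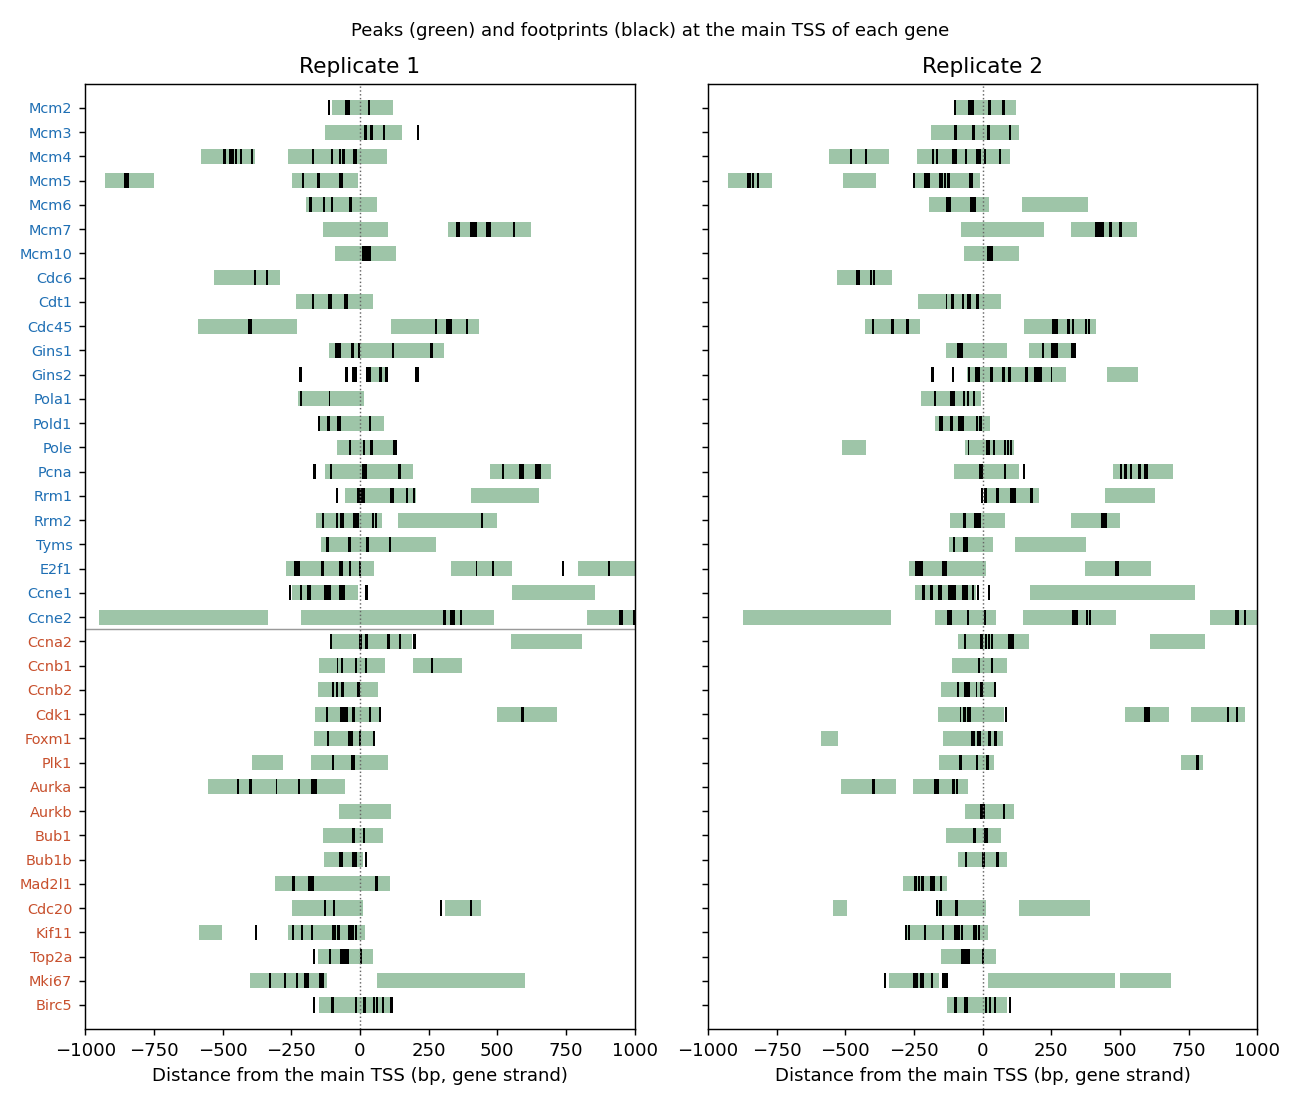
Peaks of the longer lists (green) and footprints (black) from 1000 bp before to 1000 bp after the main TSS, in bp on the strand of the gene, for replicate 1 (left) and replicate 2 (right). At most genes a peak covers the start site. The peaks of Cdc6 and Aurka lie upstream of it, those of Cdc45 lie on either side, and the footprints of Mcm7 lie inside the gene.

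**Figure D3:**
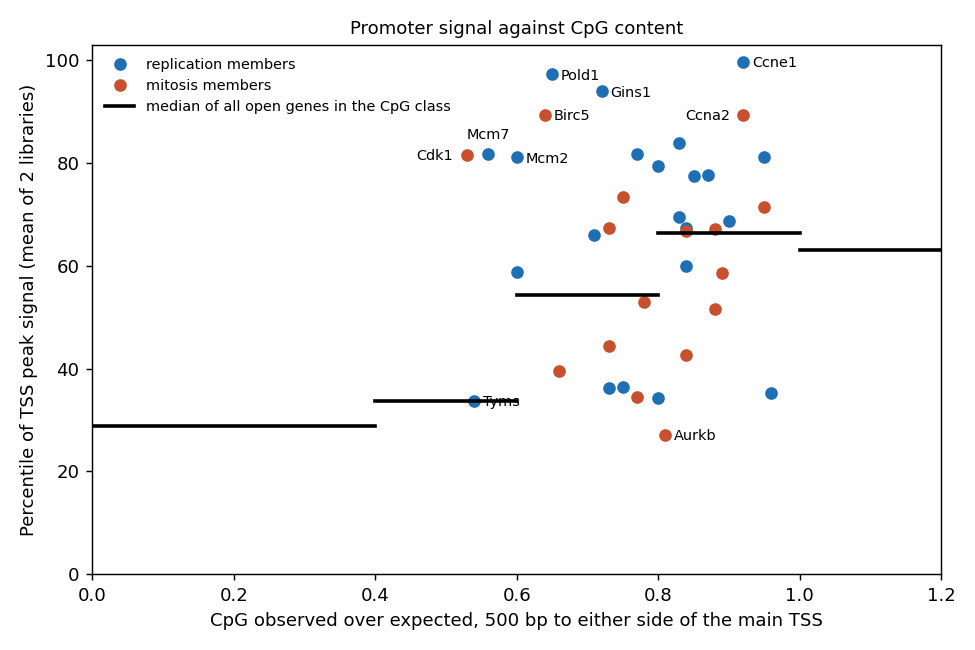
Percentile of the strongest TSS peak, as the mean of the 2 libraries, against CpG observed over expected within 500 bp of the main TSS, with replication genes in blue, mitosis genes in red and black lines for the median of all open genes in each CpG class. Mcm7, Cdk1 and Mcm2, at 81.8, 81.6 and 81.1, stand furthest above the line of their class (33.6), followed by Pold1, and Aurkb stands furthest below its own.

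The 2 sets differed in the letters of their promoters. Motifs were searched on both strands from 250 bp before to 50 bp after the main TSS. The E2F motif was any of TTTCCCGC, TTTGGCGC, TTTCGCGC and TTTGCCGC. The CCAAT box was CCAAT, and the CHR was TTTGAA or TTCGAA. An E2F match stood in 10 of the 22 replication promoters (45.5%) and in 1 of the 16 mitosis promoters (6.25%), beside 4.20% of open genes and 2.91% of all genes. A CHR match stood in 2 replication promoters (9.09%) and in 12 mitosis promoters, beside 12.9% of open genes and 17.0% of all genes. CCAAT boxes were frequent in both sets, at 15 replication genes (68.2%) and 13 mitosis genes (81.2%), beside 37.9% of open genes and 38.4% of all genes. Weighting open genes to the CpG classes of the replication or the mitosis set moved these backgrounds little, to 4.89% and 4.95% for E2F, 12.0% and 11.8% for the CHR, and 37.6% and 37.8% for the CCAAT box. The CHR contrast was smaller in a window of 500 bp to either side of the main TSS, with a match at 11 of 22 replication and 14 of 16 mitosis genes, beside 40.1% of open genes. Inside the strongest peak of replicate 2 it stood at 4 and 11 genes, beside 6.61%. E2F matches within 500 bp stood at 15 and 2 genes (10.6% of open genes), and with looser letters in the promoter window at 12 and 4 (17.4%). These shares are descriptions of annotated sequence. A match is not a bound site.

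The E2F matches were at Mcm3, Mcm4, Mcm5, Mcm6, Cdc6, Cdt1, Gins1, Pola1, Pole and E2f1, and, among mitosis genes, at Cdk1. They covered 4 of the 6 ring genes and the factor's own gene. In 8 of these 10 replication genes a CCAAT box accompanied the E2F match, as it did in 241 of the 561 open genes with an E2F match. The CHR matches of the replication set were at Mcm2 and Cdc45. All 12 mitosis genes with a CHR also had a CCAAT box, a pair found at 5.66% of open genes and at 2 replication genes. Of the mitosis genes, 3 had none of the 3 motifs in the window, Ccna2, Mad2l1 and Birc5, as did 5 replication genes, Mcm7, Pold1, Pcna, Tyms and Ccne1, beside 52.8% of open genes. Ccne1 and Pold1, the members with the highest mean percentiles, were thus among those without these letters. The strongest peak of Mcm7 in both libraries, and that of Pcna in replicate 1, lay downstream of the window that was searched. Gins1, second to Ccne1 in replicate 2, had 2 E2F and 2 CCAAT matches, but these lie at its main TSS. Its strongest peak in replicate 2 was centred at -4834 bp, and the strongest at the main TSS had 5.61. At least 2 CCAAT boxes were present in 10 replication and 10 mitosis promoters, beside 13.8% of open genes. Top2a held the most, with 6 CCAAT boxes and 4 CHR matches. Most of them lie in the stretch below, which was chosen after its values were seen.
Top2a, chr11:99024239-99024421, minus strand, capitals for CCAAT (also read as ATTGG) and CHR: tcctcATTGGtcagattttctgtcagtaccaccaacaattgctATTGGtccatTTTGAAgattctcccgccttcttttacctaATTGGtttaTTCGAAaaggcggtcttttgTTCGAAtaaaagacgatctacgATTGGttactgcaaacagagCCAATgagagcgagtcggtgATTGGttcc

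**Figure D4:**
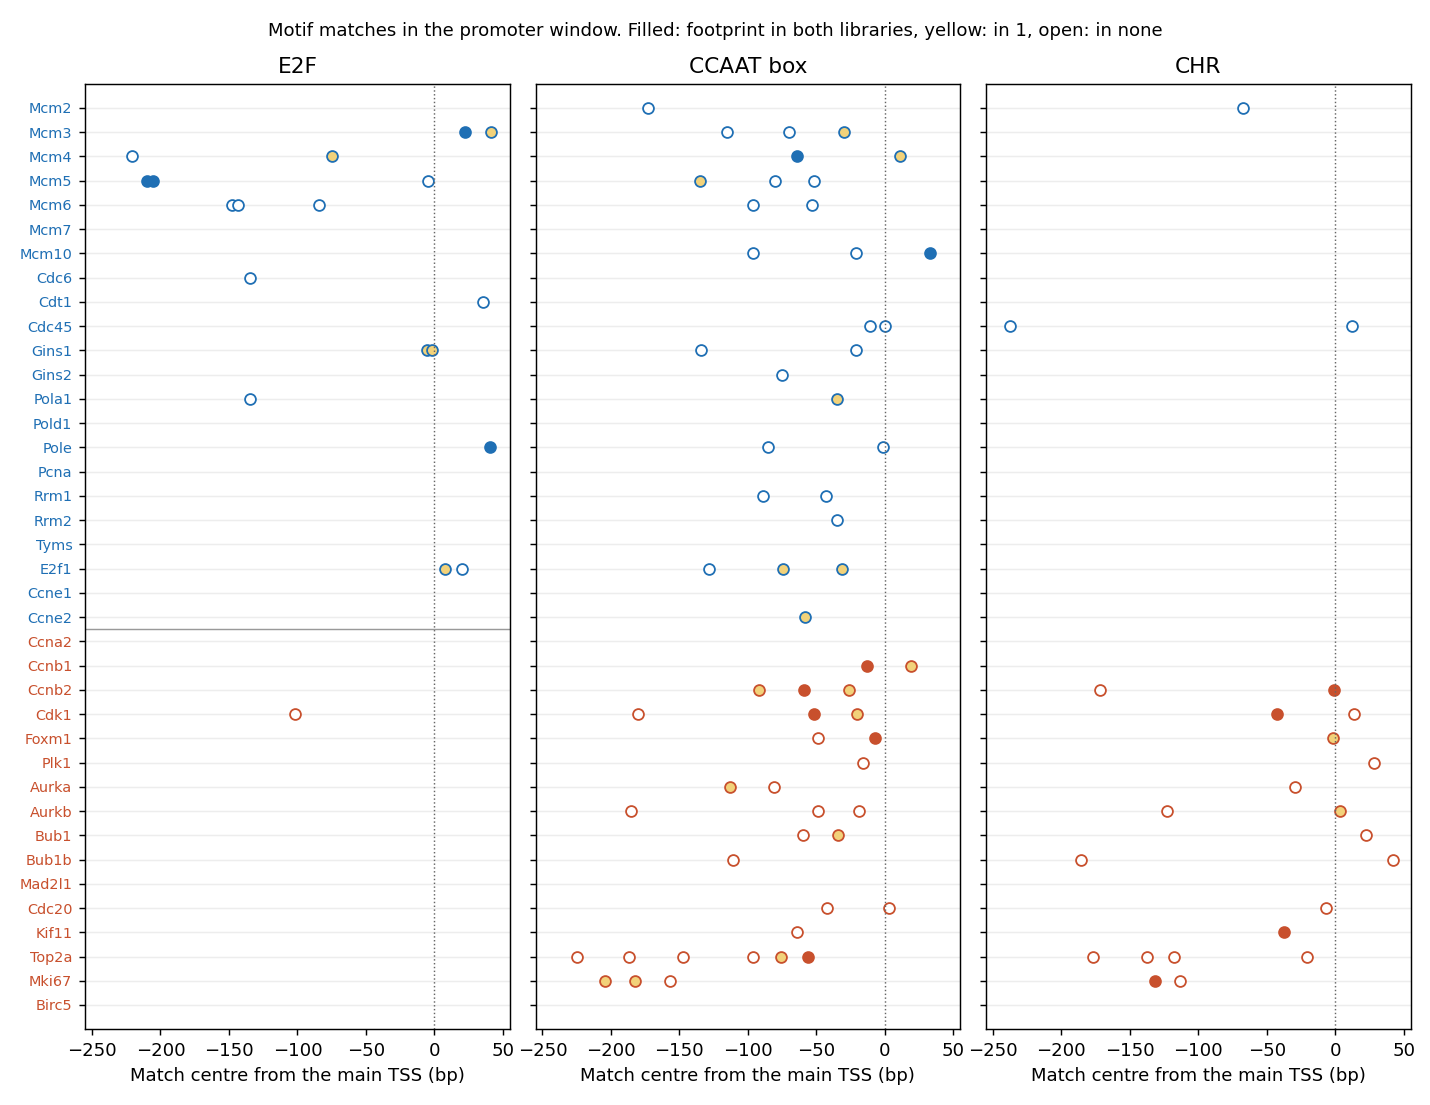
Centre of every E2F (left), CCAAT box (middle) and CHR (right) match in the promoter window, in bp from the main TSS, for replication genes (blue) and mitosis genes (red). Filled circles were overlapped by a footprint in both libraries, yellow ones in 1 and open ones in none. E2F matches are nearly all in the upper, replication rows, and CHR matches nearly all in the lower, mitosis rows.

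Other motifs separated the sets less. The GC box GGGCGG was present at 17 replication and 14 mitosis genes, beside 45.7% of all genes and 64.4% of open genes. The ETS letters CCGGAAG stood at 5 and 2 genes (11.3% of all genes and 16.7% of open genes). The consensus of NRF1, a factor of housekeeping promoters, stood at 1 and 2 genes (6.15% and 9.65%), and a TATA box, TATAAA, at 2 and 1 (12.5% and 6.80%). Both mitosis genes with an NRF1 match, Ccna2 and Aurka, had it under a footprint in both libraries, as did 71.0% of open genes with this match. One CCAAT match, at Aurkb, shared bases with a GC box, and no E2F or CHR match of a member shared bases with another of these motifs.

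Footprints in both libraries covered an E2F match at 3 of the 10 replication genes that had one, Mcm3, Mcm5 and Pole, beside 11.8% of open genes with a match. At Mcm5 a pair of overlapping matches on opposite strands lay from -213 to -202 (the capitals at the left of its printed sequence). Such a pair, chosen after it was seen, stood at 3 replication genes and at 0.0375% of open genes. Replicate 1 had a footprint on that of Mcm5 from -212 to -206 and replicate 2 a longer one from -213 to -192. Those at Mcm3 and Pole lay downstream of the main TSS, in annotated exon sequence. At Mcm3 the footprints covered 14 to 26 in replicate 1 and 15 to 25 in replicate 2. At Pole they ran from 37 to 48 and from 36 to 44, over the match from 37 to 44. Replicate 1 alone had footprints on E2F matches at 3 further genes, Mcm4, Gins1 and E2f1.

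CHR matches were footprinted at mitosis genes. Both libraries had one at 4 of the 12 genes with a match, Ccnb2, Cdk1, Kif11 and Mki67, and at neither of the 2 replication genes, beside 3.77% of open genes with a match. At Ccnb2 the CHR spans the main TSS, and the footprints ran from -9 to 0 and from -10 to 0. At Cdk1 a single footprint touched both elements, spanning -60 to -44 in replicate 1 and -58 to -45 in replicate 2, and it covered the CCAAT box at -54 to -50 and the first base or more of the CHR at -45 to -40. The E2F match further upstream in the same promoter, the first capitals of its printed sequence, had no footprint in either library.

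CCAAT boxes were footprinted in both libraries at 5 of 13 mitosis genes, Ccnb1, Ccnb2, Cdk1, Foxm1 and Top2a. The same held for 2 of 15 replication genes, Mcm4 and Mcm10, beside 17.4% of open genes with a match. Many of these promoters hold several boxes. Counted per box, 5 of 31 in mitosis genes (16.1%) and 2 of 29 in replication genes (6.90%) were footprinted in both libraries. Over the boxes of all open genes the share was 13.2%, so per box the mitosis genes lay near the background. Ccnb2 showed how a single promoter could vary between libraries. Its middle CCAAT box, from -61 to -57, was touched in both, while those on either side were touched in replicate 2 alone. At Top2a the long footprint, -73 to -42 in replicate 1 and -79 to -47 in replicate 2, covered the box nearest the TSS, the last capitals of its printed sequence. Its 4 CHR matches had no footprint in either library.

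The same contrast was read in genes outside the 38. A list of 42 other replication genes (origin recognition, replication factor C, further polymerase subunits and the like) and one of 42 other mitosis genes (kinesins, condensins, kinetochore and further checkpoint genes) were all open in both libraries. Over all genes the open share was 61.3%, and over those with a CpG content of 0.8 to under 1.0 it was 96.4%. The median CpG contents of these lists were 0.82 and 0.81. E2F matches stood at 10 of the other replication genes (23.8%) and at 1 of the other mitosis genes (2.38%). CHR matches stood at 4 (9.52%) and 23 (54.8%). CCAAT boxes stood at 21 of 42 and 32 of 42 (76.2%). In the promoter window the order of the sets was thus that of the members for all 3 motifs. For each motif the set that held it more often held it in a smaller share in the wider list. Pold3, an accessory subunit of polymerase delta, had signals of 6.52 and 15.7, and with Orc4, of the origin recognition complex (3.77 and 9.79), was the most open of the other replication genes. Ncapg, a condensin subunit, with 4.75 and 11.8, and Kif23, a motor of cytokinesis, with 4.88 and 9.50, led the other mitosis genes.

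**Figure D5:**
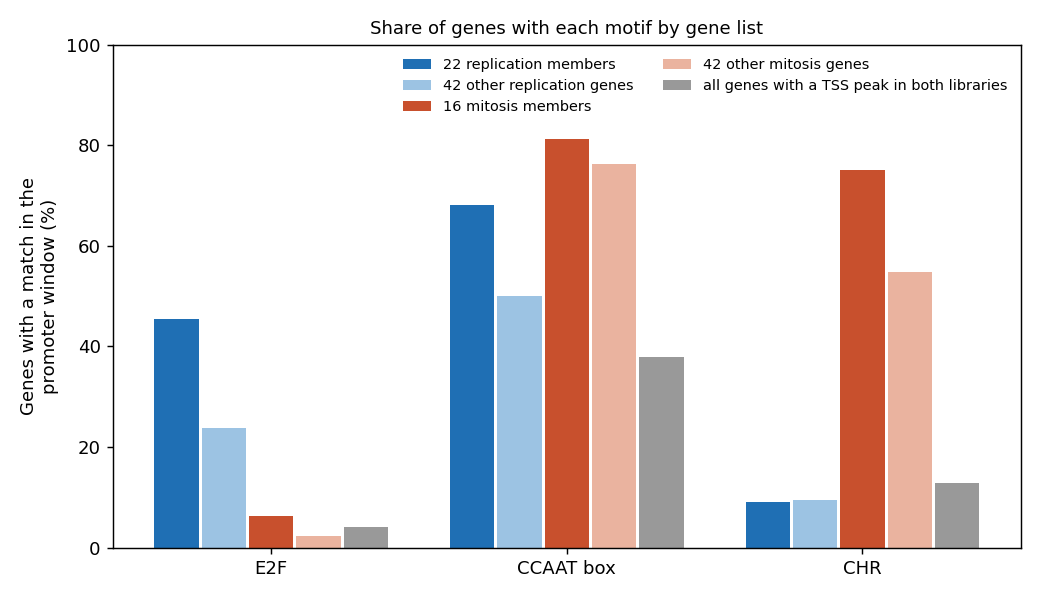
Share of genes (vertical axis, percent) with an E2F, CCAAT box or CHR match in the promoter window, for the members, the wider lists and all open genes. Blue bars exceed red ones for E2F, 45.5% against 6.25% for the members, and red bars exceed blue ones for the CHR, 12 of 16 members against 2 of 22.

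The regulators of both waves were open as well. All 23 genes of a list of E2F, retinoblastoma, DREAM and cyclin-dependent kinase inhibitor genes met the rule in both libraries. The share was 61.3% over all genes and 91.9% over genes with a CpG content of 0.6 to under 0.8. The median CpG content of the 23 was 0.75. Their median percentile of 56.8 was below that of the members, 67.3. Cdk4, the G1 kinase that frees E2F, had 4.24 and 9.73, and E2f3, a second activating E2F, had 3.46 and 7.20. E2F matches stood at 4 of the 23 (17.4%), CCAAT boxes at 6 (26.1%) and CHR matches at 5 (21.7%). Over open genes these shares were 4.20%, 37.9% and 12.9%.

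Markers of the tissue were also read. Of 12 adrenal cortex and chromaffin markers 4 were open in both libraries, Nr5a1, Cyp11a1, Chga and Chgb. Star and Cyp21a1 had a peak in replicate 2 alone, with 2.73 and 1.12. The other 6 had no TSS peak in either, Cyp11b1, Dbh, Hsd3b1, Mc2r, Pnmt and Th. The open share was 33.3%, beside 61.3% of all genes. The median CpG content of these markers was 0.22, and of all genes with a CpG content below 0.4 only 17.1% were open. Of 10 leukocyte and erythroid markers, which would mark dividing blood cells, only Ptprc had a peak in both, with 0.367 and 0.405, below every member. That peak was centred 55229 and 55156 bp from the main TSS, at another annotated start. Spi1 in replicate 1 and Klf1 in replicate 2 had 1 peak each, and the other 7 markers had none. The open share was 10.0%, beside the same 61.3% and 17.1%, and the median CpG content of these 10 markers was 0.20. The share of these cell types in the signal of the members was not tested.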

How the data were processed

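DNase-seq was deposited per library, with 2 peak lists, a footprint list and a list of false discovery rates, on assembly mm10 per the labels. The authors' signal, 1 value per peak, was used as deposited. For its scaling, the read depth, the peak caller and the filters used, the sources here give nothing, so counting error could not be computed. The deposited false discovery rates are adjusted p-values below 0.05, and the deposited footprints carry 1 constant value of 0.01, taken as a p-value threshold, and no score. The longer lists held 45983 and 87306 peaks on chromosomes 1 to 19 and X in replicates 1 and 2, the shorter ones 27737 and 50373, and the footprint lists 98298 and 141925 entries.

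Peaks were joined to GENCODE M21 start sites on GRCm38.p6 by an overlap of at least 1 bp with 1 kb to either side. The signal of a gene is that of its strongest such peak. The main TSS is the 5′ end of the coding transcript with the best APPRIS tag, then GENCODE basic, then the most upstream. CpG content was taken 500 bp to either side of it, in classes divided at 0.4, 0.6, 0.8 and 1.0, and whole classes served as the comparison. A motif match counted as footprinted when a footprint overlapped it by at least 1 bp. The genome is that of C57BL/6J, and the other parental allele may differ. Genes are not replicates, and no p-value was computed. The members and lists were chosen with earlier results of these data known. All 38 members are named, and from each other list the 2 genes with the highest mean percentile. Sequences are from promoters whose E2F match, or CCAAT and CHR matches, were footprinted in both libraries, apart from those of Top2a, Mcm6 and Gins1, which were chosen after their values were seen. RefSeq promoter windows, matched for 30 of the 38 members, were an alternative added after seeing the data. Work was done in Python 3.11.15 with pysam 0.24.0 and numpy 2.4.6, and the motif and overlap searches were tested on simulated data, where 1800 of 1800 planted motifs were found.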

Additional observations from a re-analysis of the deposited data

How the results depend on the processing

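Over all alternatives for the peak rule, 35 to 38 members kept a TSS peak in both libraries, 35 where the peaks of the libraries had to share 50% of each. The median percentile of the members, 67.3, was 56.2 with the signal summed over TSS peaks, 63.7 in the shorter lists, 56.4 within the own CpG class and 65.2 to 68.8 in single libraries. That of replication genes, 73.5, was 69.3 at the main TSS, 68.5 with sums, 70.5 in the shorter lists, 66.2 within the own class and 71.1 to 72.1 in single libraries. That of mitosis genes, 62.6, was 48.1 with sums, 50.6 within the own class and 59.0 to 61.7 in single libraries. CHR matches at replication genes numbered 11 within 500 bp of the main TSS (mitosis genes 14, open genes 40.1%) and 4 inside the strongest peak (mitosis genes 11, open genes 6.61%). E2F matches at mitosis genes numbered 2 within 500 bp and 4 with looser letters (replication genes 15 and 12, open genes 10.6% and 17.4%). In RefSeq windows E2F stood at 8 of 17 replication and 1 of 13 mitosis genes, beside 4.21% of open genes. The CHR stood at 3 and 10 genes in these windows, beside 12.8%. Footprinted matches moved most with the library: E2F at 3 to 6 replication genes, CCAAT boxes at 3 to 6 replication and 6 to 8 mitosis genes in single libraries. The cause was not tested. No paired analysis was possible because there is 1 group.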

Other observations

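Overlapping E2F matches on opposite strands, as printed for Mcm5, were seen at 3 members after their values were known. They were Mcm5, Mcm6 and Gins1, whose stretches read as follows, with the pair in capitals, on the strand of the gene in GRCm38.p6.
Mcm6, chr1:128359798-128359822, minus strand: gtatgctTTTGGCGCGAAAagtgcg
Gins1, chr2:150909578-150909603, plus strand: gagcctaTTTGGCGCCAAAgcgagga
Of 561 open genes with an E2F match, 5 held such a pair, and the other 2 were Mycn, a MYC family factor, and Msh3, a mismatch repair gene. No gene of the wider replication list held one. The pair was footprinted in both libraries at Mcm5, in replicate 1 alone at Gins1 and in neither at Mcm6.

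The spacing of CCAAT boxes was also looked at after the positions were seen. Boxes 30 to 34 bp apart stood at 5 of the 10 mitosis members with at least 2 boxes, Ccnb1, Ccnb2, Cdk1, Aurka and Aurkb, and at 0 of the 10 replication members. The share was 17.9% of 1845 open genes with at least 2 boxes, 31.6% in the wider mitosis list and 3 of 10 such genes in the wider replication list, so the contrast of the members was not seen between the wider lists.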
